A study of Mus musculus with 12 samples.

Results

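Promoters of long non-coding RNA (lncRNA) genes gave 2330 of the 91354 accessible regions (peaks) in the peak set that the BGI samples of both cell types define, or 2330 of 89931 on the autosomes. A peak was taken when it lay within 1 kb of a transcription start site (TSS) of a lncRNA gene in GENCODE M21 (gene types lincRNA, antisense, sense_intronic, sense_overlapping, processed_transcript, macro_lncRNA, bidirectional_promoter_lncRNA or lncRNA) and over 1 kb from every protein-coding TSS. The rule uses positions of peaks and annotated starts, and no measured difference between samples. The 2330 peaks belong to 1853 of the 9423 autosomal lncRNA genes, each peak being named for the gene with the nearest TSS. A further 2621 peaks lay within 1 kb of both a lncRNA and a coding TSS and were left out, because their signal cannot be given to either gene.

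The assay was Omni-ATAC-seq, in which the transposase Tn5 inserts sequencing adapters into open chromatin. Mouse embryonic fibroblasts (MEFs), sorted by FACS as Thy1+, were compared with mESCs, embryonic stem cells of the mouse, from the Thy1-, Ssea1+ and Epcam+ gate. All cells were of C57/Bl6 background, with no treatment given in the labels. There were 3 libraries a cell type (MEF 1, 2 and 4; mESC 1, 3 and 5), and both a DNBSEQ-G400 of BGI and a HiSeqX10 of Illumina read each of them, giving 12 samples in 4 groups of 3. The study set the 2 sequencers side by side to learn how they differ for this assay. The platforms read the same libraries, so that 1 platform is a technical repeat of the other.

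LncRNAs are transcripts that are not translated into a conserved protein. Some act in cis, by transcription or transcript at a neighbouring gene, as the imprinted antisense RNAs do, and others serve as precursors of microRNAs or small nucleolar RNAs, or as scaffolds of nuclear bodies. Many lncRNA promoters carry few CpG dinucleotides and are transcribed in few cell types, whereas promoters of housekeeping genes mostly lie in CpG islands. An ATAC-seq peak carries no strand and shows an open promoter, not a transcript, and in bulk samples fewer cells with an open site cannot be told apart from less access per cell.

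The central 200 bases of 9 of these peaks are given first, as examples of promoters that are described below by their cell type values. They were read from the GRCm38 reference on the plus strand, and the capitals mark matches on either strand to any of 8 short motifs. The AP-1 motif searched was TGANTCA, the site of Fos and Jun dimers. The octamer, bound by Oct factors of pluripotent cells, was ATGCAAAT. TEAD factors, the DNA-binding partners of Yap, were searched for with GGAATG. The extended site of orphan nuclear receptors such as Esrrb was AAGGTCA. Of the promoter elements, the GC box of Sp factors was GGGCGG. The site of Ets family factors was taken as CCGGAAG. The TATA box was TATAAA, and that of the factor NRF1 GCGCATGCG. The first 4 come from promoters more open in MEFs, at chr1:162217457-162217656 (Dnm3os), chr10:84003689-84003888 (C230099D08Rik), chr8:126839717-126839916 (A630001O12Rik) and chr6:31088660-31088859 (Lncpint).
Dnm3os: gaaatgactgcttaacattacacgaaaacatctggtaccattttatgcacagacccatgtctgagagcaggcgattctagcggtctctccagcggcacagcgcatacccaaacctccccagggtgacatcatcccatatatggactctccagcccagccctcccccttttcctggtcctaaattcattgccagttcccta
C230099D08Rik: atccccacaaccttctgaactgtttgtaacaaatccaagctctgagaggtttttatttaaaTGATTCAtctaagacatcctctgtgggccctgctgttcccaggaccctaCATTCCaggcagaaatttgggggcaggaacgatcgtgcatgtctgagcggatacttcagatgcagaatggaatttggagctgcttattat
A630001O12Rik: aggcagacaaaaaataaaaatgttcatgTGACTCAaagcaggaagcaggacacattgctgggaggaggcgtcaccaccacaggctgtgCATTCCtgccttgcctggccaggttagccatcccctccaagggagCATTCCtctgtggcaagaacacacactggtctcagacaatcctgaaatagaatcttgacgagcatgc
Lncpint: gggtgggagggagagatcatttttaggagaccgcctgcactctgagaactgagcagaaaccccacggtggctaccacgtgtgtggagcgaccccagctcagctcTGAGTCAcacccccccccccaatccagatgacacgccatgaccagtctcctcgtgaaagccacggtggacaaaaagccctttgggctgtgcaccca
The next 4 come from promoters more open in mESCs, at chr12:12788661-12788860 (Platr19), chr9:118406152-118406351 (Platr11), chr19:53460411-53460610 (4833407H14Rik) and chr13:97482558-97482757 (Lncenc1).
Platr19: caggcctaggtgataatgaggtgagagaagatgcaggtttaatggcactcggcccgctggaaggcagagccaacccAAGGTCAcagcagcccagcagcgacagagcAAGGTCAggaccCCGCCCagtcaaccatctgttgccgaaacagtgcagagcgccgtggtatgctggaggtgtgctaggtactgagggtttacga
Platr11: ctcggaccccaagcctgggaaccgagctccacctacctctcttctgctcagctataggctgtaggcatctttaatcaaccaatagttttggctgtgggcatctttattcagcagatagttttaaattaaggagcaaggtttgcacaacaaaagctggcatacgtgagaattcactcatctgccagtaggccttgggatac
4833407H14Rik: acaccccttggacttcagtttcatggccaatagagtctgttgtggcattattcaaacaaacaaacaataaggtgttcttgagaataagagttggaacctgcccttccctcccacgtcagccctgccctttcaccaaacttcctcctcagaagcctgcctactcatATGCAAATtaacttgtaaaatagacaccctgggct
Lncenc1: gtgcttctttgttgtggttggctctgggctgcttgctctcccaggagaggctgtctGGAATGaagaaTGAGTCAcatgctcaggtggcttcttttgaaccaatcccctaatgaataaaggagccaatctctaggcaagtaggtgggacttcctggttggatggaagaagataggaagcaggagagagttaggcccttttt
The last is the CpG-rich promoter of 1810026B05Rik at chr7:73558595-73558794, which was open to a like degree in both cell types.
1810026B05Rik: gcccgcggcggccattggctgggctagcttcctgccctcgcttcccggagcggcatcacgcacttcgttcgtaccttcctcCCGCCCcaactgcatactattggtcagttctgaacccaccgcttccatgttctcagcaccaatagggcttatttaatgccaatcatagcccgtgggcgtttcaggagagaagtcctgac
An AP-1 match stands in 3 of the 4 windows taken from promoters more open in MEFs, and in 1 of those more open in mESCs. The printed Dnm3os and Platr11 windows hold none of the 8 motifs.

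By the rule each peak lay near a lncRNA start and away from coding starts. The lncRNA TSS itself lay inside 1049 of them, 711 were 1 to 500 bp away and 570 were over 500 and up to 1000 bp away. The nearest coding TSS was a median of 22484 bp away. The peak centre lay outside coding genes in 1753 cases (75.2%), in a coding intron in 470 (20.2%) and in a coding exon in 107 (4.59%), and it lay in an exon of a lncRNA in 587 (25.2%). By gene type, 1385 peaks belonged to lincRNAs, which lie between coding genes, 577 to antisense transcripts, 308 to processed transcripts, 44 to sense intronic, 8 to bidirectional promoter, 7 to sense overlapping and 1 to macro lncRNA genes. Peaks just inside the rule resembled those just outside. In the last 100 bp inside the limit around the lncRNA TSS, 108 peaks had a median of 6.80 CPM (counts per M reads in peaks, mean of the 6 BGI samples), and the 105 peaks in the first 100 bp beyond it had 5.90. In the first 100 bp beyond the limit around a coding TSS the 40 peaks kept had a median CPM of 8.15, and the 37 peaks left out in the last 100 bp inside it had 8.79.

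Reads counted in the peak set ranged from 15860985 to 21831840 a sample, the median count of a lncRNA promoter peak from 131 to 166, and the number of these peaks with no read from 0 to 11. The labelled cell types were checked at coding promoters. All 6 mESC markers were more accessible in mESCs (summed CPM 168 to 202 against 20.6 to 21.3 in MEFs) and all 6 MEF markers in MEFs (205 to 234 against 50 to 51.6). Of 8 genes of endothelium, blood, endoderm and epithelium, Cdh5 and Ptprc had no promoter peak. The other 6 summed to 72.7 to 83.6 CPM in MEFs against 78.6 to 85.4 in mESCs, with Sox17, Krt8 and Krt18 higher and Csf1r and Gata6 lower in mESCs. What part such cells had in the results below was not tested.

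LncRNA promoters took a slightly larger share of the reads in mESCs. In the BGI samples the share of reads in peaks that fell in them was 2.575%, 2.567% and 2.594% in MEFs 1, 2 and 4 (mean 2.58 ± 0.0139, SD, n = 3) and 2.681%, 2.669% and 2.707% in mESCs 1, 3 and 5 (2.69 ± 0.0194). On Illumina the means were 2.52 ± 0.00451 and 2.64 ± 0.0146. Every mESC sample was above every MEF sample on either platform, and every BGI sample was above the Illumina sample of the same library. In coding promoter peaks the mean share was 49.76% on BGI and 53.75% on Illumina in MEFs. In mESCs it was 48.01% and 51.21%, so these shares moved the other way. Shares of 1 total are bound to each other, and the peaks were defined on BGI data. No gain at lncRNA promoters is thus read from their share. No p is given for this sum over the peaks.

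The main comparison asked how the same promoters differ between the cell types. Of the 2330 peaks, 998 were more accessible and 981 less accessible in mESCs than in MEFs on BGI (edgeR quasi-likelihood test, Benjamini-Hochberg adjusted p under 0.05), and 351 did not pass. Among all 91354 peaks 40.9% were higher and 43.2% lower, so these counts, 42.8% and 42.1% of the lncRNA promoters, lie near the background. With a change of at least 2-fold required as well, 774 were higher and 698 lower, against 33.0% and 30.1% of all peaks. On Illumina 1013 were higher and 978 lower, where 41.2% and 43.4% of all peaks were. The platforms called 1921 peaks in the same direction and 0 in opposite directions, 58 passed on BGI alone, 70 on Illumina alone and 281 on neither. Scaling by the down-sampled depths in place of TMM moved the median log2 fold change of all peaks up by 0.14, and the lncRNA promoters then gave 1065 higher and 881 lower.

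LncRNA promoters stood between coding promoters and distal sites in how far they moved. The median size of the BGI log2 fold change was 1.58 over lncRNA promoter peaks, 0.54 over the 25332 coding promoter peaks and 2.56 over the 60769 peaks more than 1 kb from every TSS. Changes of at least 2-fold were called at 63.2%, 29.6% and 77.1% of them, respectively. Levels had the reverse order, with median CPM of 7.84, 13.2 and 5.81. From the 10 to the 90 percentile the log2 fold change of lncRNA promoters ran from -3.53 to 3.44. These are descriptions over peaks, which are not replicates, and no test was made of the classes.

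**Figure D1:**
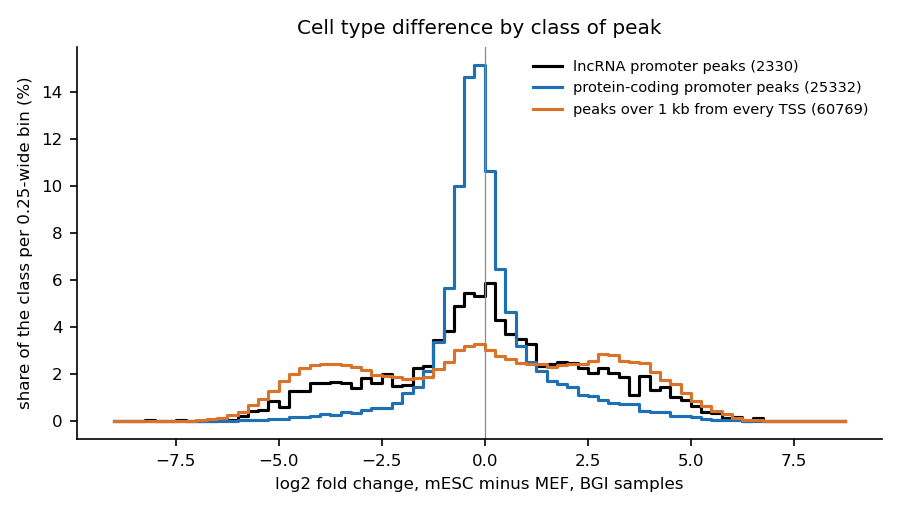
Distribution of the log2 fold change between mESC and MEF (BGI samples, x axis) as the share of each class of peak per bin (y axis, %), for lncRNA promoters (black), coding promoters (blue) and distal sites (orange). Coding promoters pile up near 0, with a median size of change of 0.54, whereas lncRNA promoters spread over both sides with a median size of 1.58, less widely than distal sites at 2.56.

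The peaks with the strongest evidence were taken by a rule: called in the same direction on both platforms, changed at least 2-fold, with a mean CPM of at least 10 in the higher cell type, and then the 10 smallest BGI p-values in each direction with 1 peak a gene. The rule had 404 peaks to choose from on the mESC side and 403 on the MEF side. All 10 peaks on the mESC side carry clone-based names, and no function is given for them here. The greatest change among them was at Gm47599 (chr10:95461150-95461651), where CPM was 0.785, 0.795 and 0.398 in MEFs 1, 2 and 4 against 48.4, 54.0 and 54.4 in mESCs 1, 3 and 5. Next came 1110002J07Rik, with 0.508, 0.348 and 0.697 CPM in MEFs against 39.3, 39.3 and 34.8 in mESCs. Both promoters were nearly closed in every MEF library and open in every mESC library, with no overlap. Their log2 fold changes were 6.22 (SE 0.176, adjusted p 4.92e-14) and 6.11 (SE 0.192, adjusted p 8.95e-14).

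The other 8 differed from 4.52 to 5.36 on the log2 scale. At 4833407H14Rik, whose printed window holds an octamer match, CPM was 1.29, 1.89 and 1.74 in MEFs against 49.9, 50.5 and 46.8 in mESCs (log2 fold change 4.84, SE 0.145, adjusted p 6.25e-14). Gm16754, 12804 bp from the TSS of Keap1, had 1.38, 1.14 and 1.24 CPM in MEFs against 45.4, 51.6 and 47.5 in mESCs (5.18, SE 0.147). Again no MEF library came near an mESC library. The remaining peaks were 2410021H03Rik (5.14) near Epb41l3, 4930461G14Rik (5.36), 2410017I17Rik (4.71), Gm12100 (4.69), Gm20005 (4.66) and Gm34250 (4.52). Illumina gave 4.65 to 6.38 for the 10 peaks.

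On the MEF side the list includes lncRNAs of mesenchymal tissue. Dnm3os is an antisense transcript inside the coding gene Dnm3 that is the precursor of microRNAs expressed in mesenchyme. At its TSS (chr1:162217307-162217808, in an intron of Dnm3) CPM was 63.2, 59.5 and 73.5 in MEFs against 3.03, 3.78 and 2.67 in mESCs. All 3 MEF libraries were far above all mESC libraries, and the log2 fold change was -4.43 (SE 0.138, adjusted p 8.56e-14). Runx2os2 is transcribed opposite Runx2, the gene of a transcription factor of bone formation, and its peak lies in an intron of that gene. Its CPM was 30.1, 26.7 and 25.1 in MEFs against 0.820, 0.591 and 0.497 in mESCs (-5.48, SE 0.206, adjusted p 3.88e-13).

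Carmn, a lncRNA of heart and smooth muscle, had 53.8, 48.5 and 49.9 CPM in MEFs against 3.85, 3.19 and 2.30 in mESCs (-4.09, SE 0.148). The groups were again far apart. Gm11216 lies 29184 bp from the TSS of Tnc, which encodes the matrix protein tenascin C, and had 49.5, 45.7 and 48.2 CPM against 0.630, 1.42 and 1.43 (-5.42, SE 0.178). A630001O12Rik had the most open MEF promoter of the 10, at 79.5, 75.9 and 70.1 CPM, and kept 7.69, 7.69 and 6.21 CPM in mESCs (-3.45, SE 0.116). It is the peak of the 10 that remained the most open in mESCs. The others were C230099D08Rik (-5.56), A530053M12Rik (-5.44), Gm36377 (-5.40), 8430426J06Rik (-5.22) and Gm15722 (-5.01), and Illumina gave -3.52 to -6.16 for the 10. Both printed windows of C230099D08Rik and A630001O12Rik hold AP-1 and TEAD matches.

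**Figure D2:**
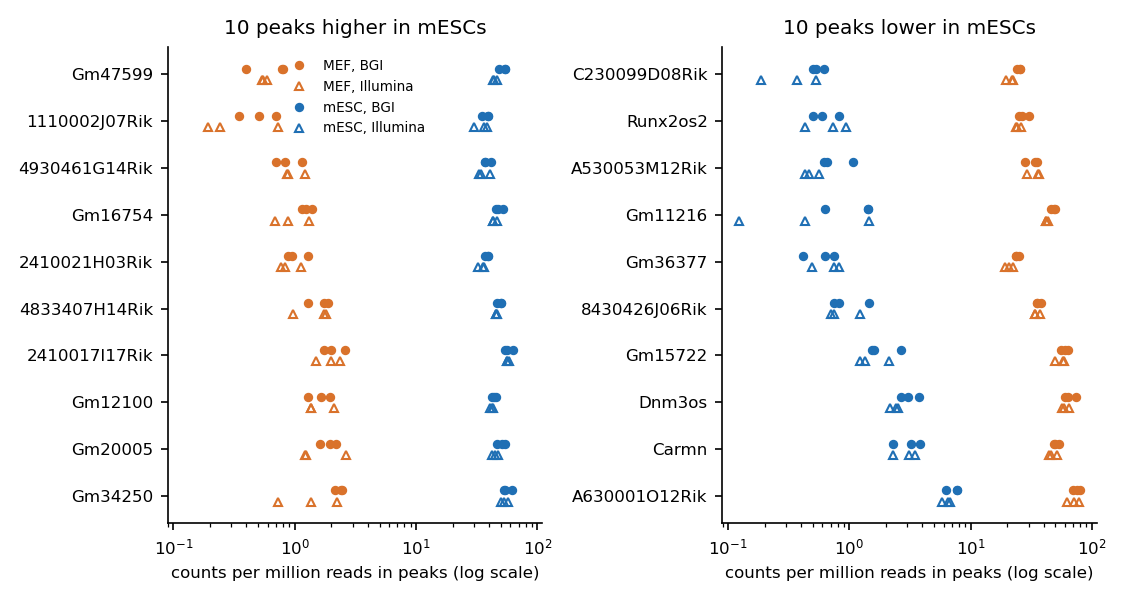
CPM of every sample (x axis, log scale) at the 10 lncRNA promoter peaks higher in mESCs (left) and the 10 lower (right) with the smallest p, for MEFs (orange) and mESCs (blue) on BGI (filled circles) and Illumina (open triangles). Samples of a cell type lie together on both platforms and the cell types do not overlap, as at Gm47599, where BGI MEFs had 0.398 to 0.795 CPM and mESCs 48.4 to 54.4.

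The most open lncRNA promoters, by mean CPM over the 6 BGI samples, changed little in 4 of 5 cases. 1810026B05Rik, also known as Chaserr and placed 16615 bp from the TSS of Chd2, had 86.3, 88.2 and 93.5 CPM in MEFs against 79.6, 97.0 and 79.3 in mESCs, so the groups overlapped (log2 fold change -0.13, SE 0.0919, adjusted p 0.191). 1700096K18Rik likewise did not pass, with 72.7, 80.1 and 70.3 CPM against 78.3, 94.5 and 81.6 (0.12, SE 0.0934, adjusted p 0.227). Gm15287 (-0.24, adjusted p 0.0107) and Gm6410 (-0.37, adjusted p 4.13e-04) were slightly lower in mESCs. All 4 peaks have an observed over expected CpG ratio of 0.643 to 0.921. The exception was Gm16046, with a CpG ratio of 0.264, where CPM was 40.2, 41.1 and 35.4 in MEFs against 128, 119 and 114 in mESCs (1.56, SE 0.0912, adjusted p 5.17e-11).

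The 9 lists of lncRNAs with known roles or tissues were read out of the whole fit. Over all 2330 lncRNA promoter peaks the median log2 fold change on BGI was 0.01, and over all peaks -0.08. Transcripts named for their expression in pluripotent cells stood furthest toward mESCs. Of 21 peaks at 14 such genes (the Platr series and Lncenc1), 18 were higher in mESCs, 2 were lower and 1 did not pass, with a median log2 fold change of 4.02, where 40.9% of all peaks were higher and 43.2% lower. The names of this list come from expression in stem cells, so its direction is a check of the cells more than a result.

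Platr19 had 1.29, 1.29 and 0.747 CPM in MEFs against 35.7, 33.0 and 36.0 in mESCs at the peak printed above, 526 bp from its TSS (4.89, SE 0.178, adjusted p 2.70e-13). Platr11, 71709 bp from the TSS of the mesendoderm gene Eomes, had 0.462, 0.696 and 0.797 CPM against 31.3, 30.3 and 31.7 (5.51, SE 0.186, adjusted p 1.46e-13). Platr26 rose from 1.02, 0.845 and 0.946 to 27.5, 26.8 and 26.3 CPM (4.76, SE 0.175). At these 3 peaks each MEF library was at or below 1.29 CPM. The peak at the TSS of Platr19 itself was not closed in MEFs, with 6.23, 7.21 and 5.68 CPM against 14.9, 12.5 and 15.2 in mESCs (1.09, SE 0.163, adjusted p 7.42e-06). Platr22 was the most open of the list in mESCs, at 50.1, 45.5 and 47.1 CPM, but kept 12.6, 9.89 and 8.56 CPM in MEFs (2.13, SE 0.129, adjusted p 7.89e-11). The other peaks with 1 or more mESC values over 20 CPM were Platr12 (5.23), Platr4 (5.47), Platr27 (4.67) and the TSS of Lncenc1 (5.74).

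Lncenc1, a lncRNA of naive pluripotent cells, had peaks that went in opposite directions. At the start that lies in chr13:97482408-97482909 CPM was 0.415, 0.696 and 0.249 in MEFs against 18.6, 30.7 and 27.8 in mESCs (5.74, SE 0.282, adjusted p 6.53e-12). About 1 kb further on, at chr13:97483598-97484099, it was 11.1, 9.74 and 11.3 in MEFs against 1.39, 2.54 and 1.80 in mESCs (-2.54, SE 0.233, adjusted p 1.43e-08). Neither pair of groups overlapped. At the upstream start of the gene, 1 peak was lower in mESCs (22.3, 15.2 and 16.1 against 7.19, 5.20 and 9.32 CPM, -1.38) and the other did not pass (-0.25, adjusted p 0.174).

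Of 9 peaks at 4 mesoderm and heart lncRNAs, 8 were lower in mESCs, 0 higher and 1 did not pass, with a median of -2.87, beside 43.2% lower and 40.9% higher among all peaks. Dnm3os and Carmn account for 6 of the 8 lower peaks. The 3 peaks at Dnm3os had log2 fold changes from -4.51 to -4.03, and the 3 at Carmn from -4.09 to -1.69. Bvht, a lncRNA of early heart mesoderm, had 38.7, 39.2 and 35.8 CPM in MEFs against 29.3, 30.5 and 28.7 in mESCs at its TSS, a small difference without overlap (-0.43, SE 0.0950, adjusted p 4.34e-04), and -1.58 at a second peak. Hand2os1, opposite the heart gene Hand2, was the exception (0.21, adjusted p 0.309).

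MicroRNA host genes had 7 peaks higher, 9 lower and 1 not called of 17 at 8 genes (median -0.53), where 40.9% and 43.2% of all peaks were higher and lower, so no direction is read from the split. Mir17hg, the host of a cluster of growth-promoting microRNAs, had 25.9, 26.7 and 27.5 CPM in MEFs against 18.9, 18.2 and 16.1 in mESCs (-0.66, SE 0.110, adjusted p 2.61e-05). Mir9-3hg, host of a neural microRNA, had 5.03, 5.32 and 7.52 CPM in MEFs against 26.4, 29.2 and 27.4 in mESCs (2.15, SE 0.150, adjusted p 4.57e-10). Neither host showed overlap between the groups. The hosts of the neural microRNA of the Mir124 family were also higher in mESCs (0.63 to 1.42 over 3 peaks), whereas both Mir99ahg peaks were lower (-1.87 and -1.75). Mir670hg had 3 peaks lower (-1.49 to -0.53) and 1 higher (0.81).

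Imprinted lncRNAs, which are transcribed from 1 parental allele, had 9 of 12 peaks lower in mESCs, 2 higher and 1 not called (6 genes, median -0.997), against 43.2% of all peaks lower and 40.9% higher. Of the 9 lower peaks 4 belong to Meg3, and all 4 of its peaks were lower, from -4.86 to -2.98. At the most open one CPM was 24.1, 25.5 and 29.8 in MEFs against 1.32, 4.14 and 3.04 in mESCs (-3.27, SE 0.234, adjusted p 6.23e-10). H19 fell from 18.2, 16.7 and 22.2 to 3.09, 3.55 and 2.80 CPM (-2.66, SE 0.176). Airn, the antisense RNA that silences Igf2r in cis, had 20.2, 20.2 and 24.3 against 8.95, 11.6 and 9.44 CPM (-1.17, SE 0.141). These 3 genes were lower in each mESC library than in any MEF library. The antisense transcripts Kcnq1ot1 and Nespas differed from them. Kcnq1ot1, a transcript that silences its neighbours in cis, had 38.4, 37.4 and 32.1 CPM against 41.2, 46.3 and 31.7, which overlap (0.08, SE 0.128, adjusted p 0.574), and Nespas at the Gnas locus was higher in mESCs at both peaks (0.54 and 0.86). The reads are not split by allele, so it cannot be told which allele was open.

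Neural lncRNAs had 7 of 11 peaks higher in mESCs, 3 lower and 1 not called (7 genes, median 1.02), where 40.9% of all peaks were higher and 43.2% lower. Of the 11 peaks 6 belong to Six3os1 and Sox2ot. Six3os1, opposite the forebrain gene Six3, had 10.2, 10.1 and 9.31 CPM in MEFs against 28.2, 27.3 and 27.4 in mESCs at its TSS (1.42, SE 0.118, adjusted p 4.18e-09). The 3 peaks of Sox2ot, which overlaps Sox2, were higher by 0.54 to 2.32. Dlx6os1, transcribed at the Dlx5 and Dlx6 genes of forebrain, limb and jaw, was the clear exception, with 21.0, 24.9 and 13.4 CPM in MEFs against 0.189, 0.473 and 0.373 in mESCs (-5.87, SE 0.326, adjusted p 2.76e-11). Its values did not overlap, although the MEF libraries varied among themselves. Lower in mESCs were also Rmst (-0.76) and Miat (-1.56).

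Hox cluster lncRNAs gave 5 peaks lower, 2 higher and 2 not called of 9 at 6 genes on BGI (median -0.37), against 43.2% of all peaks lower, and 4 lower on Illumina or with the down-sampled depths. Haglr, of the Hoxd cluster, was lower at 2 of its 3 peaks (-1.62 and -0.96), as were Hoxb5os (-2.61) and both Hoxd3os1 peaks (-1.33 and -0.37), of which the second did not pass on Illumina (-0.28, adjusted p 0.0837). Hoxa11os was higher in mESCs, from 2.03, 1.89 and 1.79 CPM in MEFs to 10.4, 8.93 and 8.95 (2.23, SE 0.218), and Hoxb3os was slightly higher (0.48, adjusted p 0.0116). Hoxaas3 did not pass (-0.07, adjusted p 0.678), and its sign turned with scaling by the down-sampled depths (0.07).

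At targets of the tumour suppressor p53, 4 peaks were lower, 2 higher and 1 not called of 7, at 2 genes, near the shares over all peaks (43.2% lower, 40.9% higher). On Illumina 3 were lower, as with RLE size factors and DESeq2, and with the down-sampled depths 2. No peak of Lncpint was called higher in mESCs, and 2 peaks of Trp53cor1 were. Lncpint, at the peak printed above, had 38.0, 32.2 and 23.3 CPM in MEFs against 2.46, 1.77 and 1.62 in mESCs (-4.07, SE 0.215, adjusted p 1.48e-11). Its most open CpG-rich start, at chr6:31216598-31217099, changed far less, at 7.48, 9.59 and 11 against 8.32, 6.09 and 8.45 CPM (-0.36, SE 0.189, adjusted p 0.0837), with overlap between the groups. Trp53cor1 (lincRNA-p21), near Cdkn1a, had lower values at its most open peak (16.0, 13.7 and 10.7 against 10.8, 9.46 and 12.4 CPM, which overlap, -0.38, adjusted p 0.0472), a call that was lost on Illumina (-0.33, adjusted p 0.0602), and higher at the other 2 (2.43 and 2.72).

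The list of host genes of small nucleolar RNAs, which most cells transcribe, was taken by symbol. It gave 3 peaks higher, 7 lower and 8 not called of 18 at 12 genes, beside 40.9% higher and 43.2% lower among all peaks. Their median was -0.14, which turned to 0.00416 (6 higher, 6 lower) under scaling by the down-sampled depths. Snhg8 had 64.1, 60.9 and 59.8 CPM in MEFs against 51.4, 54.8 and 44.0 in mESCs (-0.36, SE 0.0966, adjusted p 0.00207). Dancr had 44.8, 40.4 and 43.1 against 49.7, 63.5 and 48.6 CPM (0.27, SE 0.108, adjusted p 0.0284), and Snhg5 31.6, 29.7 and 29.0 against 19.5, 20.4 and 19.2 (-0.68, SE 0.104, adjusted p 8.93e-06). None of these 3 overlapped between the cell types, but the differences stayed under 2-fold. The furthest of the list was Snhg7os at -1.86, where 45.9, 47.0 and 45.1 CPM stood against 14.9, 11.6 and 13.4. Snhg7os is annotated as antisense and entered by its symbol, and is not itself a host gene. Among the other genes of the list the furthest was Snhg10 (-1.07, adjusted p 3.35e-05).

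Broadly expressed lncRNAs gave 5 peaks higher, 8 lower and 2 not called of 15 at 6 genes on BGI (median -0.28), near the shares over all peaks (40.9% higher, 43.2% lower), and 3 higher and 7 lower on Illumina. With RLE size factors and with the down-sampled depths 5 were higher and 5 lower. Crnde had 47.5, 44.4 and 54.8 CPM in MEFs against 43.3, 47.7 and 39.2 in mESCs, with overlap (-0.24, SE 0.102, adjusted p 0.0397). Neat1, the RNA that builds paraspeckles, was lower at both peaks (-0.59 and -0.53). At Malat1, an abundant RNA of nuclear speckles, the CpG-rich upstream peak had 33.0, 28.5 and 39.9 against 28.9, 31.3 and 27.1 CPM (-0.28, SE 0.117, adjusted p 0.0348), and did not pass on Illumina (adjusted p 0.125). Malat1's other peaks went both ways, with 1 lower (-0.90, adjusted p 5.38e-05) and 4 higher in mESCs (0.43 to 0.84), of which 2 did not pass on Illumina (adjusted p 0.0539 and 0.535). Pvt1, downstream of Myc, was lower at its first promoter (-0.91, SE 0.175) and higher at a start 111275 bp from the Myc TSS, where 1.43, 2.09 and 2.59 CPM stood against 9.84, 7.45 and 9.63 (2.07, SE 0.245).

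Most lncRNA promoters carry names that say nothing of function. The 1916 peaks of clone-based names (Gm and a number, or Rik) had 826 higher and 806 lower, with a median of 0.02. The 88 peaks of opposite-strand symbols had 39 higher and 34 lower (median 0.21). By gene type, 281 of the 577 antisense peaks were higher and 218 lower, 581 and 602 of the 1385 lincRNA peaks, 119 and 126 of the 308 processed transcript peaks and 14 and 27 of the 44 sense intronic peaks. Over all peaks 40.9% were higher and 43.2% lower, and no direction of a gene type is read from these counts, which were not tested against them.

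**Figure D3:**
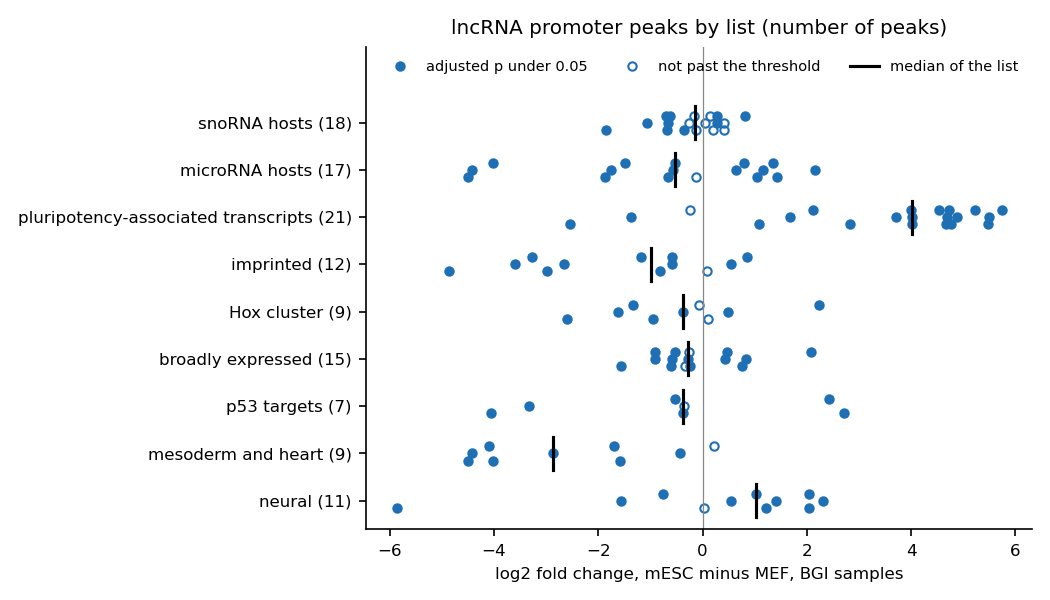
Log2 fold change between mESC and MEF on BGI (x axis) of each lncRNA promoter peak in 9 lists (y axis, number of peaks in brackets). Filled points passed an adjusted p of 0.05, open points did not, and the black bars are medians, which run from -2.87 for mesoderm and heart to 4.02 for pluripotency-associated transcripts, while snoRNA hosts crowd near 0.

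Different starts of 1 lncRNA could go in opposite directions. Of the 1853 genes 1474 had 1 peak and 379 had 2 or more, up to 7 at 3110039I08Rik. At 59 of these 379 genes the test called 1 peak or more in each direction, and at 25 the changes were at least 2-fold both ways. Of all peaks 40.9% were higher and 43.2% lower, and no like count was made at other genes. No trait of lncRNA genes is thus read from these counts. Lncenc1 and Pvt1 above are examples of genes with calls both ways. Frmd8os and Lncenc1 were picked for opposite directions after their values were seen, although Lncenc1 is also a list member. Frmd8os had 5 peaks with log2 fold changes from -1.67 to 2.63. Peaks of 1 gene can lie at separate transcripts or at an enhancer beside the start, which these data cannot tell apart.

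CpG content went with how far a promoter moved. The CpG ratio of the peak centre was at least 0.6 in 385 lncRNA promoter peaks (16.5%), against 56.2% of coding promoter peaks and 3.62% of distal sites. Of these 385 peaks 94 changed at least 2-fold (59 higher and 35 lower, 24.4%), with a median CPM of 12.8. Of the 1945 below 0.6, 715 were at least 2-fold higher and 663 lower (70.8%), with a median CPM of 7.21. Among coding promoters the same shares were 11.3% and 53.1%, and at distal sites 40.4% and 78.5%. Within either band of CpG content lncRNA promoters thus still stood between the other classes. Where the TSS itself lay in the peak, the shares were 21.0% of 224 CpG-rich and 70.2% of 825 CpG-poor peaks.

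**Figure D4:**
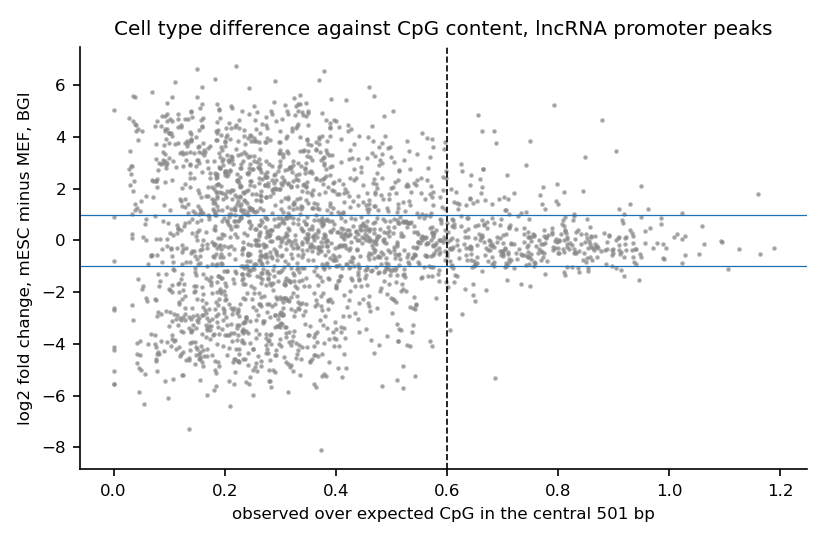
Log2 fold change between mESC and MEF on BGI (y axis) against the observed over expected CpG ratio of the peak centre (x axis) for the lncRNA promoter peaks. The dashed line marks a ratio of 0.6 and the blue lines a 2-fold change, and the points to the right of 0.6 lie mostly between the blue lines, where 24.4% changed at least 2-fold against 70.8% to the left.

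Short motifs in the peak centre (250 bp to either side) were described for peaks that were at least 2-fold higher in mESCs (774), at least 2-fold lower (698) or neither (858). TGANTCA was in 17.4%, 38.4% and 18.2% of them, against 25.2% of all peaks and 11.6% of coding promoters. The share among all peaks at least 2-fold lower in mESCs was 44.5%, so that the pattern is not one of lncRNA promoters alone. GGAATG, at 28.3%, 42.0% and 24.7% (31.6% of all peaks), was also most frequent at the peaks lower in mESCs, as it was among all lower peaks (43.1%). ATGCAAAT was in 4.91%, 1.72% and 3.26% (3.21% of all peaks), and AAGGTCA in 12.7%, 7.74% and 6.99% (9.57%). Both were most frequent at promoters higher in mESCs, and were in 5.30% and 15% of all peaks higher in mESCs. GGGCGG was in 31.1%, 16.5% and 47.2% (30.8% of all peaks and 61.8% of coding promoters) and CCGGAAG in 9.43%, 3.44% and 9.79% (6.91%). TATAAA was in 15.4%, 21.5% and 13.2% (18.0%), and GCGCATGCG in 0.517%, 0.573% and 1.05% (0.793%). Both strands were searched, TGANTCA and GGAATG can overlap by chance as any short words can, and a match is a description of letters and no evidence of binding.

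GC content and position differed with direction. Median GC was 51.7% in peaks at least 2-fold higher in mESCs, 48.7% in those lower and 54.8% in the others, and the nearest coding TSS lay at a median of 18951, 35140 and 18307 bp. Among 691 lncRNA promoter peaks over 50 kb from any coding TSS, 27.4% were at least 2-fold higher and 42.4% lower in mESCs, and among the 482 at 1 to 5 kb 34.6% were higher and 21.2% lower. All autosomal peaks at these distances had the same order, with 32.2% higher and 53% lower over 50 kb and 42.7% and 25.8% at 1 to 5 kb, so the pattern is not one of lncRNA promoters alone. Soft-masked repeats covered a median of 11.6%, 9.38% and 7.78% of the peaks higher, lower and neither.

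LncRNA promoters and the promoter of the nearest coding gene moved together only weakly. For 2040 peaks the nearest coding gene had a promoter peak of its own, and across them the log2 fold changes correlated at Pearson r = 0.22 and Spearman rho = 0.21. At 1 to 5 kb (433 peaks) the values were 0.29 and 0.33, and beyond 50 kb (593 peaks) 0.20 and 0.15. Both peaks passed the test in 1194 pairs, and 726 of these had the same direction. The median size of the change was 1.58 at the lncRNA promoter and 0.43 at the coding promoter. The points share the same 6 libraries, and many share a coding gene, so no p is given. Other peaks were not set against their nearest coding promoter, so the weak link is not read as a trait of lncRNA promoters.

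The authors' lists of reproducible peaks and single-sample peak calls rest on the same reads as the counts, and the peak set was built from the BGI lists, so they are given as a description and not as separate support. On BGI, 754 lncRNA promoter peaks overlapped a listed peak of both cell types by at least 50% of their width, 733 of MEFs alone, 843 of mESCs alone and 0 of neither. Median log2 fold changes were -0.10, -2.66 and 2.43 for these, and the test called 477, 698 and 804 of them, where 84.1% of all peaks were called. The split by list was not counted over all peaks, so no trait of lncRNA promoters is read from it. On Illumina the numbers were 724, 642, 740 and 224, where the peak set itself came from BGI. A called summit lay in 79.7% to 80.5% of the peaks in BGI MEF samples and in 82.4% to 83.4% in BGI mESC samples. The median -log10 p of those summits was 49.5 ± 4.63 in BGI MEFs and 39.8 ± 1.97 in BGI mESCs (SD, n = 3), and 46.3 ± 2.75 and 38.4 ± 1.39 on Illumina. MEF samples were down-sampled to 60 M reads and mESC samples to 45 M, and the part of that depth in the p-values was not tested.

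The second comparison asked whether the sequencer changes the reading of these promoters. Without regard to the shared libraries, 39 of 2263 tested peaks were lower on BGI than on Illumina in MEFs against 1 was higher (3.95% and 0.0391% of all peaks). With library number as a block, which the labels give since each library was read on both machines, 206 were lower and 115 higher (12.9% and 5.47%). In mESCs 28 of 2209 were lower and 1 higher without the block (2.03% and 0.0216%), and 191 lower and 85 higher with it (12.2% and 4.02%). Differences were small, with 2 called peaks in MEFs against 5 in mESCs at 2-fold or more. Median log2 ratios over lncRNA promoters were 0.02 and 0.01, against -0.14 and -0.12 over coding promoters and 0.09 and 0.07 over distal sites. All these peaks were defined on BGI data, so the platforms are not compared on an even set of peaks. By edgeR the unblocked count fell to 0 without MEF library 1 or 2 (104 and 101 at an unadjusted p under 0.05) and rose to 68 without MEF library 4. In mESCs it was 0 without library 1 or 5 (133 and 74 unadjusted) and 18 without library 3.

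The loss on BGI followed GC content. Among the 296 lncRNA promoter peaks with at least 60% GC the median log2 ratio of BGI to Illumina was -0.23 in MEFs and -0.19 in mESCs. Of these peaks 146 and 132, respectively, were called lower on BGI, and 1 was called higher in either cell type. Among the 289 with under 45% GC the medians were 0.08 and 0.06, with 4 lower in either cell type and 27 and 5 higher. Across peaks Spearman's rho of GC content and log2 ratio was -0.39 in MEFs (2263 peaks) and -0.36 in mESCs (2209), a description over peaks of the same libraries. With an offset for GC content in the blocked fit, 174 were lower and 22 higher in MEFs, and 158 and 30 in mESCs. Shares over all peaks of like GC content, or with the offset, were not counted. Coding promoter peaks, with a median GC of 59.9%, were lower on BGI with the block at 38.9% in MEFs and 34.4% in mESCs. The loss is thus not one of lncRNA promoters alone.

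The peak at the GC-rich end of this range is shown by its central 200 bases, at chr15:68362720-68362919 (Gm20732, capitals mark CG), on GRCm38 and the plus strand.
Gm20732: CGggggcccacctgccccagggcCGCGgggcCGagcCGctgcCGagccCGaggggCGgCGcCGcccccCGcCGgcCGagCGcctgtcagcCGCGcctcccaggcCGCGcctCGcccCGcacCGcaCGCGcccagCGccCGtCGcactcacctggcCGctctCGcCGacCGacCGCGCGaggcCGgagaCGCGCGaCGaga
Gm20732 had the highest GC content of the peaks named here (83.4%) and 38 CG dinucleotides in the printed window. In MEFs it had 9.05, 11.8 and 10.2 CPM on BGI and 19.3, 21.4 and 22.3 on Illumina, and in mESCs 8.64, 9.52 and 7.70 against 17.4, 18.6 and 15.9. Each library was lower on BGI, and the blocked log2 ratios were -1.08 (SE 0.0817, adjusted p 1.13e-20) and -1.05 (SE 0.0907, adjusted p 2.29e-26). With the GC offset they were -0.30 (adjusted p 0.0101) and -0.35 (adjusted p 0.00494).

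Other promoters with strong platform differences were GC-rich on the low side. 1810059C17Rik (GC 76.6%) was lower on BGI in both cell types (-0.52 and -0.56 with the block), with 67.4, 70.6 and 70.5 CPM on BGI and 89.3, 96.6 and 101 on Illumina in MEFs. With the GC offset both calls were lost, at 0.03 (adjusted p 0.767) and -0.06 (adjusted p 0.428). Mir17hg (GC 71.7%) was lower by the same order, with 25.9, 26.7 and 27.5 against 37.9, 39.7 and 40.3 in MEFs (-0.62, SE 0.0546, and -0.23 with the GC offset, adjusted p 0.00221). In both cases no BGI sample reached an Illumina sample. Gm40847 (GC 71.5%) was lower in mESCs (-0.75, SE 0.0712, and -0.41 with the GC offset, adjusted p 1.9e-06). Higher on BGI with the block were, among others, Gm28447 (0.53, adjusted p 9.39e-09) and AC121513.1 (0.75, adjusted p 1.33e-08) in MEFs and Gm48914 (0.40, adjusted p 1.16e-08) and Gm26885 (0.36, adjusted p 3.07e-09) in mESCs. Without the block none of these 4 passed (adjusted p 0.186, 0.182, 0.0941 and 0.0685), while 1 lncRNA promoter peak was called higher on BGI in either cell type. The 4 thus do not stand for every gain on BGI. Their GC content was 49.9% to 58.1%.

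**Figure D5:**
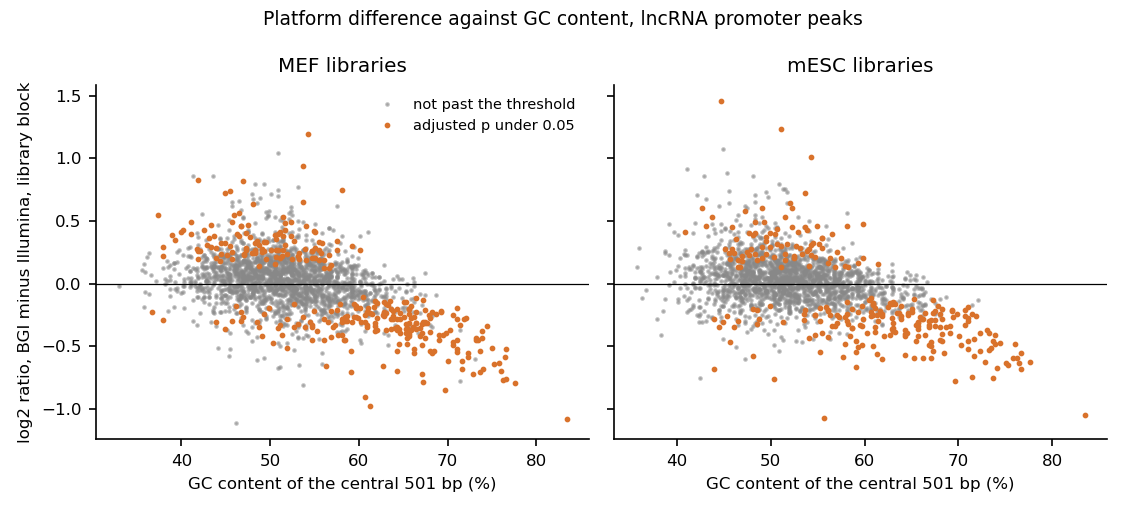
Log2 ratio of BGI to Illumina with library number as a block (y axis) against GC content of the peak centre (x axis, %), for lncRNA promoter peaks in MEF libraries (left) and mESC libraries (right). Orange points passed an adjusted p of 0.05 and bend below 0 at high GC content, down to Gm20732 at 83.4% GC with -1.08 in MEFs and -1.05 in mESCs.

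The last comparison asked whether the cell type difference itself depends on the platform. With library as a block, the interaction of platform and cell type passed at 10 of 2330 lncRNA promoter peaks, against 0.386% of all peaks, and 299 had an unadjusted p under 0.05. The 12 samples were scaled together in that fit, and the median interaction over all peaks was then 0.113 on the log2 scale. The estimates of the 10 peaks were 0.23 to 0.73, so their shared sign is no result about these peaks. With 2 other scalings, added after seeing the data, the all-peak median was -0.00669 (RLE size factors) and -0.0141 (TMM within each platform), and no peak of the whole table passed, with 155 and 163 lncRNA promoter peaks at an unadjusted p under 0.05. At Gm13201 the separate cell type fits gave 0.51 on BGI and -0.08 on Illumina, neither a change of 2-fold, and the interaction fell from 0.73 to 0.60 with TMM within each platform (adjusted p 0.409). By edgeR with the 12 samples scaled together the count was 0 without the block (58 at an unadjusted p under 0.05) and 0 without MEF library 1, mESC library 3 or mESC library 5 (212, 181 and 248 unadjusted). It was 1 without MEF library 2 or mESC library 1 and 5 without MEF library 4.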

How the data were processed

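Omni-ATAC-seq of 6 libraries was read on both platforms. Illumina reads were sequenced at 150 bp and cut to 100 bp, and BGI reads were sequenced at 100 bp. The paper also reports shorter inserts in the BGI data. What part either had in the platform comparisons here was not tested. The authors trimmed adapters with Cutadapt, aligned with Bowtie2 to GRCm38 (mm10), removed duplicates and reads of mapping quality under 10, and down-sampled MEF samples to 60 M and mESC samples to 45 M reads. MACS2 was run per sample. The deposited count tables hold raw read counts per peak without normalization, and the deposited peak files give -log10 p of each summit. The authors' reproducible lists hold positions of peaks with a score, scaled per M, of at least 3 in at least 2 samples. The authors wrote the platform into a count column's name only for BGI, and columns without it were taken as Illumina.

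Members were chosen with GENCODE M21 on GRCm38, and the members and lists were chosen with earlier results of these data known. Counts were tested on the whole table with the two-sided quasi-likelihood test of edgeR 4.0.16 in R 4.3.3 (TMM, filterByExpr, Benjamini-Hochberg adjusted p under 0.05), as a self-check also on simulated data, with DESeq2 1.42.0 as an alternative. All 2330 members passed the filter in the cell type fits, 2263 in the MEF and 2209 in the mESC platform fit. CPM divides by reads in peaks. p-values of the cell type fits and the unblocked platform fits measure the spread between 3 libraries a group. With library as a block, differences between libraries are taken out. The p-values of those fits measure how far the platform difference itself varied between repeat readings of the same libraries.

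Library numbers pair the platforms: after removal of group means, r between same-numbered samples was 0.38 to 0.58 (MEFs) and 0.37 to 0.53 (mESCs), and between other samples -0.40 to -0.0095 and -0.35 to -0.14. The interaction used TMM over all 12 samples. The cell types share only library number 1, so no block was used there. Named peaks were the 10 smallest BGI p in each direction (called alike on both platforms, at least 2-fold, mean CPM of at least 10, 1 peak a gene), the 5 highest mean CPM, up to 4 of each list by CPM, up to 3 in each direction of each blocked platform fit, and up to 5 of the interaction. A peak that the platform rule also names is not reported here. Further peaks of these lists are given by value to account for list members. Frmd8os and Lncenc1 were picked for their opposite directions after values were seen. Motifs were searched on both strands of the peak centre (250 bp to either side), of which 91285 of 91354 peaks had sequence.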

Additional observations from a re-analysis of the deposited data

Results flagged for a closer look

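At 10 of 2330 lncRNA promoter peaks, against 0.386% of all peaks, the interaction of platform and cell type passed with library as a block (edgeR, adjusted p under 0.05), and at 0 without the block (58 unadjusted). Each value below is the interaction estimate, on the log2 scale, of 1 fit of 12 samples scaled together, in which the median over all peaks was 0.113 (higher change on BGI), so it lies above the difference between the separate fold changes of the 2 platforms. With TMM within each platform or RLE size factors, both added after seeing the data, none of the 10 passed. Gm13201 had 0.725 (SE 0.161, adjusted p 0.025), and 0.598 (adjusted p 0.409) with TMM within each platform. In MEFs 1, 2 and 4 it had 5.08, 7.90 and 5.82 CPM on BGI and 6.87, 8.74 and 7.26 on Illumina, and in mESCs 1, 3 and 5 it had 11.3, 8.40 and 8.39 on BGI and 8.36, 7.78 and 6.27 on Illumina. Each MEF library was lower on BGI and each mESC library higher. G630030J09Rik had 0.668 (SE 0.152, adjusted p 0.0286), and 0.541 (adjusted p 0.409) with TMM within each platform, beside log2 fold changes in the separate fits of -0.64 on BGI and -1.18 on Illumina. Gm13330 had 0.488 (adjusted p 0.0349), Gm41231 0.414 (adjusted p 0.039) and AC141471.3 0.386 (adjusted p 0.0431). AC110262.3 had 0.310 (adjusted p 0.0286), Gm37494 0.307 (adjusted p 0.0389), Gm12059 0.288 (adjusted p 0.0328), Gm32856 0.274 (adjusted p 0.0459) and 5430416N02Rik 0.227 (adjusted p 0.0389). GC content of these peaks was 53.9% to 66.3%, and its part in these values was not tested. When each of the 6 libraries was left out in turn, Gm13201 and AC110262.3 passed in 2 of 6 fits, G630030J09Rik, Gm37494 and Gm32856 in 1, and the other 5 in 0, and without MEF library 1, mESC library 3 or mESC library 5 no lncRNA promoter peak passed.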

How the results depend on the processing

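Counts of lncRNA promoter peaks that differ between the cell types moved little. Without 1 library in turn 1911 to 1967 passed on BGI and 1934 to 1987 on Illumina, and DESeq2 gave 1993 and 2003. With lincRNA genes alone the counts were 1201 on BGI and 1200 on Illumina, since fewer peaks enter. The platform counts depended on the model. In MEFs 40 peaks passed without and 321 with the replicate block, 196 with the replicate block and GC offset and 91 by DESeq2 with the replicate block. In mESCs 29 passed without and 276 with the replicate block, 188 with the block and GC offset and 65 by DESeq2 with the block. Without 1 library in turn the unblocked counts ran from 0 to 68 in MEFs (0 without library 1 or 2, 68 without library 4, and 101 to 265 at an unadjusted p under 0.05) and from 0 to 18 in mESCs (0 without library 1 or 5, 18 without library 3, and 74 to 156 unadjusted). The interaction gave 10 peaks, 0 with no replicate block (58 unadjusted), 0 with RLE size factors and 0 with TMM within each platform (155 and 163 unadjusted, both added after seeing the data), and 0 to 5 without 1 library in turn (181 to 309 unadjusted). The cause was not tested. The share of reads in these peaks was 2.58% in BGI MEFs and 2.69% in BGI mESCs, 2.44% and 2.54% with distance taken from the peak centre, 2.04% and 2.15% with a window of 500 bp, and 2.93% and 3.02% with the 5 prime end of the gene record alone. Of 765 checks of named peaks under an alternative, 718 kept direction and call, 35 lost and 6 gained the call, and 6 turned in sign, of which 1 had been called. Scaling by the down-sampled depths turned Rab10os to 0.047, Hoxaas3 to 0.070 and 1810026B05Rik to 0.013, Illumina turned Gm13201 to -0.081, and Kcnq1ot1, not called, ran from -0.020 to 0.225 without 1 library in turn (-0.0088 without MEF replicate 4, -0.020 without mESC replicate 3).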
